A study of Mus musculus with 6 samples.

Results

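The chromatin genes described here are 69 of the 10698 genes named on a 2-colour microarray of the mouse macrophage cell line RAW 264.7. They were chosen by symbol: Kdm, Kmt, Setd, Ezh, Kat, Hdac, Sirt, Brd, Zmynd, Smarc, Arid, Chd, Cbx, Phf, Dnmt and Tet genes, which had 81 of the 16281 probes. Of these genes, 66 had a probe measured on all 6 arrays and were tested, and 3 had values on some arrays only. The treated cells received lipopolysaccharide (LPS, the endotoxin of Gram-negative bacteria, 100 ng/ml) together with LPS-binding protein (LBP, the serum protein that hands LPS to its receptor, 100 pM) for 2 h. The other cells were cultured for 2 h without treatment. Each array carried both RNAs, and each of 3 sets had 1 forward array, with the treated RNA in the red dye Cy5, and 1 swapped array, with it in the green dye Cy3. No label says that the sets were separate cultures, so the p-values may measure technical spread only. Part of the labels write the name of the line as RAW 264.4. It is an established tumour-derived line, and no sample with LPS alone or LBP alone was analysed here.

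Chromatin proteins set how accessible a gene is. Writers such as histone methyltransferases and acetyltransferases add marks to histone tails, erasers such as demethylases, deacetylases and sirtuins remove them, and readers with bromodomains, chromodomains or PHD fingers bind to them. Remodellers of the SWI/SNF and CHD families move nucleosomes with energy from ATP, and DNA methyltransferases and TET enzymes set and remove cytosine methylation. In macrophages, several of these enzymes are known to control how strongly genes respond to endotoxin.

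Each value below is a log2 ratio of treated over untreated transcript level, and a positive value means more transcript after LPS and LBP. A ratio carries no level, so genes cannot be ranked by abundance and the macrophage identity of the cells cannot be read from it. For bulk RNA, fewer cells with a transcript and less transcript per cell cannot be told apart. Errors are SDs of the 3 sets. A gene is said to have risen or fallen where limma gave an adjusted p under 0.05 over all 11231 tested features.

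Most chromatin genes were little changed at 2 h, and those that passed the test were mainly lower. Of 66 tested genes, 4 rose, 13 fell and 49 did not pass. Over all features, 14.8% passed, 7.35% higher and 7.45% lower, against 25.8% of the chromatin genes, 6.06% higher and 19.7% lower. The median of the chromatin genes was -0.02, and that of all features was -0.00 to 2 decimals. Families had 2 to 13 tested genes, and none was tested as a set. Changes were mostly small, as over all features. Of the 66 chromatin genes, Zmynd8 and Cbx8 exceeded 1.5-fold and no other did, beside 334 of the 11231 features. The median size of the mean, sign left out, was 0.11 for the chromatin genes and 0.07 for all features. The genes that rose were Dnmt3a, Phf23, Chd1 and Brd2. Those that fell were Zmynd8, Cbx8, Brd3, Cbx6, Hdac9, Kdm3b, Kdm2b, Cbx2, Hdac5, Arid3b, Dnmt1, Smarcal1 and Smarca2. On single arrays, 23 of the 66 genes had the same sign on 6 of 6 arrays, 8 higher and 15 lower, beside a background of 19.1% of all features, 8.93% higher and 10.2% lower. The calls depend on the sets: without set 3, 6 chromatin genes passed (Zmynd8, Cbx8, Brd3, Cbx6, Hdac9 and Dnmt3a), as did 5.01% of all features. Zmynd8, Cbx8, Brd3, Cbx6 and Dnmt3a passed under all 21 alternative settings tried, and none of the 17 reversed under any of them. Zmynd8, Cbx8, Brd3 and Dnmt3a have 1 probe each, so no setting compares probes for them.

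**Figure D1:**
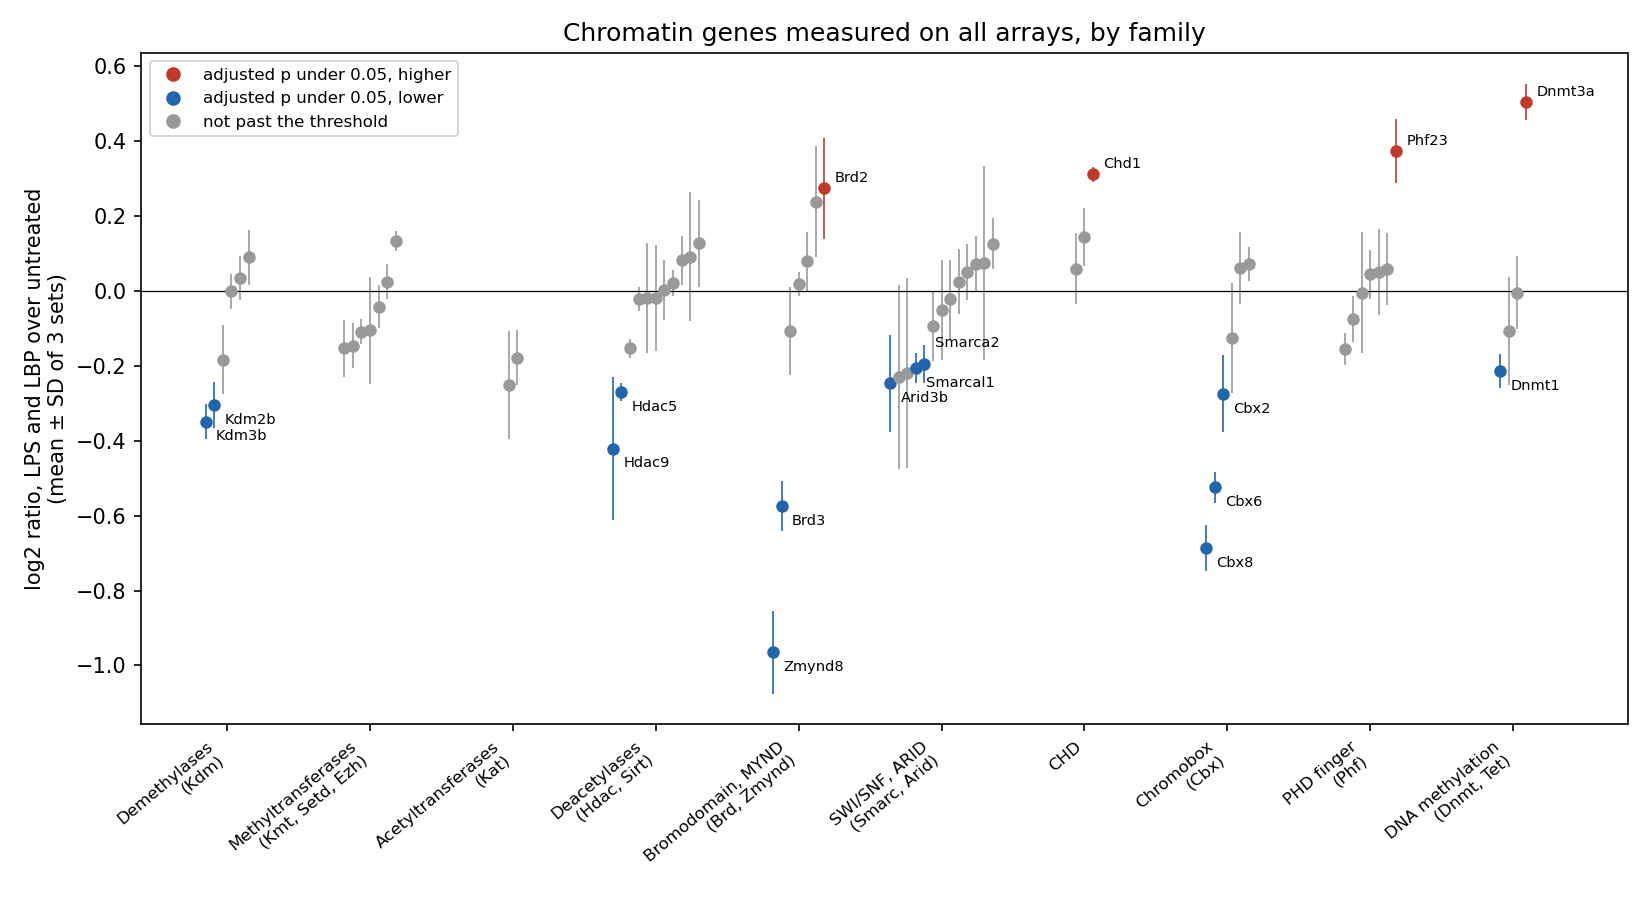
Mean log2 ratio of LPS and LBP over untreated cells for each of the 66 tested chromatin genes, grouped by family on the x axis. Bars are SDs of 3 sets. Blue and red mark genes past the threshold, and most of these lie below 0, with Zmynd8 lowest at -0.96 and Dnmt3a highest at 0.50.

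Promoter sequences of 4 of the genes that fell are shown because they are the lowest genes with a single start in the RefSeq table used here (GRCm38.p6), 250 bases before to 50 bases after the start. Cbx8 lies at chr11:119040864-119041163 on the minus strand, Brd3 at chr2:27475349-27475648 on the minus strand, Cbx6 at chr15:79834284-79834583 on the minus strand and Hdac5 at chr11:102230123-102230422 on the minus strand. Capitals mark matches to motifs of factors active in macrophages: NF-κB (GGG, any 5 bases, CC), an interferon element (GAAA, any 2 bases, GAAA), AP-1 (TGANTCA), PU.1 (GAGGAAGT), an E-box (CACGTG) and a cyclic AMP element (TGACGTCA), searched on both strands.
Cbx8: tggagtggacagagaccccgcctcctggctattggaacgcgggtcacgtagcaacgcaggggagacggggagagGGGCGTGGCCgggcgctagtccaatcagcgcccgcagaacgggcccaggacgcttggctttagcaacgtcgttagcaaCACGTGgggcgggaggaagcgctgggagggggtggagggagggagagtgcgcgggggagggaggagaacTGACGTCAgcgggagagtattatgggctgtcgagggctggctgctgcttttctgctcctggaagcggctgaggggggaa
Brd3: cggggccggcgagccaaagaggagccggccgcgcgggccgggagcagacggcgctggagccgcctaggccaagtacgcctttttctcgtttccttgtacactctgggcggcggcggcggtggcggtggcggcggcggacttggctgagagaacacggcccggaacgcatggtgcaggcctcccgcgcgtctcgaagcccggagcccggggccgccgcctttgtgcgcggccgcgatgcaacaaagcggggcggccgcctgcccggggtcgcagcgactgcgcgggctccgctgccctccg
Cbx6: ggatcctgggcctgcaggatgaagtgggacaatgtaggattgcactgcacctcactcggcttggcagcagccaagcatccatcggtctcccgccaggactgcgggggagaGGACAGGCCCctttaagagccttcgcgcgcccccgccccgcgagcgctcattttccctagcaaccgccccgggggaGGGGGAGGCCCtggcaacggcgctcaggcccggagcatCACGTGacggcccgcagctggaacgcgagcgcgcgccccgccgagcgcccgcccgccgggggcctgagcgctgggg
Hdac5: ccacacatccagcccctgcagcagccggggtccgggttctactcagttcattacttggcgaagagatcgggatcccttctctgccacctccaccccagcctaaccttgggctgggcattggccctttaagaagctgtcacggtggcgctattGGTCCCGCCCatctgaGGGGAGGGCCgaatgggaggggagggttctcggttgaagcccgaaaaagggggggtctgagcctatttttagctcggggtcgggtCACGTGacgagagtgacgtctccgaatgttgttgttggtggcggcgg
The windows hold 24 CpG dinucleotides in Cbx8, 46 in Brd3, 31 in Cbx6 and 18 in Hdac5, beside a median of 16 for promoters of genes named on the array. The E-box occurs once in each of Cbx8, Cbx6 and Hdac5 and not in the Brd3 window. Among 32851 promoters in the table, 7.15% hold an E-box, and among the 10732 promoters of genes named on the array, 8.84% do. The cyclic AMP element stands in the Cbx8 window and in 1.79% of all promoters. The loose NF-κB pattern matched Cbx8 at 1 place, Hdac5 at 2 and Cbx6 at 3, of which 2 overlap, and Brd3 at none, while 50.8% of all promoters and 61.6% of those of genes named on the array hold it. Over the 11 genes that fell and are in the table (22 promoters, as some genes have several), 18 hold the NF-κB pattern and 3 the E-box. For the 3 genes that rose (9 promoters), these counts were 8 and 1. Promoters of all 57 chromatin genes in the table had a median observed over expected CpG of 0.821, against 0.655 for genes of the array. For the 22 promoters of genes that fell, this median was 0.674, close to that of the array, and the median CpG count was 18. For the 9 promoters of genes that rose the ratio was 0.818, and for the remaining chromatin genes it was 0.852. These matches describe the letters only.

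The strongest response among readers was that of Zmynd8, a gene of a protein that binds histone marks through a bromodomain and a PHD finger and carries a MYND zinc finger. Zmynd8 stood at -0.91, -0.89 and -1.09 in sets 1, 2 and 3. All 6 arrays were low, between -1.20 and -0.84, and both dye orientations gave like values, -1.01 on forward and -0.92 on swapped arrays. The mean was -0.96 ± 0.11 (1.95-fold lower, n = 3 sets, limma adjusted p = 0.000187). Among 9472 tested named genes it ranked 9 from the lowest. That Zmynd8 was among the largest falls was known when the chromatin genes were chosen. Its rank and adjusted p therefore describe it and are no independent test. The other tested genes with the Zmynd prefix did not pass: Zmynd19 stood at -0.11 ± 0.12 (adjusted p = 0.302) and Zmynd10, a gene of motile cilia, at 0.24 ± 0.15 (adjusted p = 0.0621). Zmynd10 has a pair of complete probes made from the same transcript, which disagreed. The first averaged -0.04 and the second 0.52, and the second ran from 0.30 to 0.71 over the arrays, all above 0 (adjusted p = 0.00362 among single probes). Zmynd10 passed without set 2, with the set as a random effect, with a dye term and by its single probe.

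Bromodomain genes of the BET class, whose products bind acetylated histones and help RNA polymerase to elongate, moved apart. Brd3 was low in every set, at -0.65, -0.56 and -0.51. Its mean was -0.57 ± 0.07 (1.49-fold lower, adjusted p = 0.000815), with 6 of 6 arrays between -0.71 and -0.49. Brd2 stood at 0.15, 0.42 and 0.26 in the 3 sets, with a mean of 0.27 ± 0.13 (1.21-fold higher, adjusted p = 0.034). The Brd2 arrays were uneven, from -0.03 to 0.54, and the forward arrays averaged 0.43, against 0.12 for the swapped ones. The call was lost without set 2 (adjusted p = 0.0583), without set 3 (0.203) and when any 1 array was left out (0.0664 to 0.23). Brd3 minus Brd2 was -0.85 ± 0.12 over the sets and negative on 6 of 6 arrays. An exact sign-flip test over 3 sets gave p = 0.25, the smallest it can give. This pair was chosen after the values were seen. Brd7, a subunit of a SWI/SNF complex, stood at 0.02 ± 0.03, and Brd8, which works in an acetyltransferase complex, at 0.08 ± 0.08. Neither passed (adjusted p of 0.832 and 0.392).

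Chromobox proteins read methylated histone H3. Cbx2, Cbx6 and Cbx8 belong to Polycomb complexes, which hold developmental genes silent, and Cbx1, Cbx3 and Cbx5 encode the HP1 proteins of heterochromatin. All 3 tested Polycomb Cbx genes fell and 0 of the 3 HP1 genes passed by limma. At an unadjusted p under 0.05 there were 0 HP1 genes. Over the 6 Cbx genes, 50% passed, beside 14.8% of all features. Of 15 other Polycomb genes tested from lists outside the symbol rule, 3 rose and 0 fell, or 20% higher beside 7.35% of all features. Kdm2b, which recruits a Polycomb complex, fell, as given below. Cbx8 stood at -0.76, -0.66 and -0.64 in the sets, with a mean of -0.69 ± 0.06 (1.61-fold lower, adjusted p = 0.000372). Its arrays lay close together, from -0.79 to -0.61. Cbx6 stood at -0.55, -0.48 and -0.54, with a mean of -0.52 ± 0.04 (1.44-fold lower, adjusted p = 0.000851). Its 2 complete probes gave -0.57 and -0.48, each below 0 on 6 of 6 arrays. Cbx2 was less steady, at -0.29, -0.37 and -0.17 in the sets (mean -0.28 ± 0.10, adjusted p = 0.0218). In set 2 its arrays gave -1.10 (forward) and 0.36 (swapped), so that the set mean hides a wide gap. The Cbx2 call was lost without set 1 (adjusted p = 0.0893), without set 3 (0.0796) and when any 1 array was left out (0.176 to 0.691), and its mean was -0.11 without the forward array of set 2. It was also lost with the set as a random effect (0.118) and with the 6 arrays taken as independent (0.441), so under these settings Cbx6 and Cbx8 passed and Cbx2 did not.

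The HP1 genes lay near 0. Cbx1 averaged 0.07 ± 0.05 (95% interval -0.04 to 0.18), Cbx5 0.06 ± 0.10 (-0.07 to 0.19) and Cbx3 -0.13 ± 0.15 (-0.28 to 0.03). The mean of the Polycomb Cbx genes minus that of the HP1 genes was -0.54, -0.48 and -0.47 in the sets. This difference averaged -0.50 ± 0.04 and was negative on 6 of 6 arrays (exact sign-flip p = 0.25, the smallest possible). This grouping was made after the values were seen. Cbx2 and Cbx8 are next to each other on chromosome 11 in the RefSeq order of protein-coding genes, the only such pair among the chromatin genes. Their set 3 values, -0.17 and -0.64, differ in size.

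**Figure D2:**
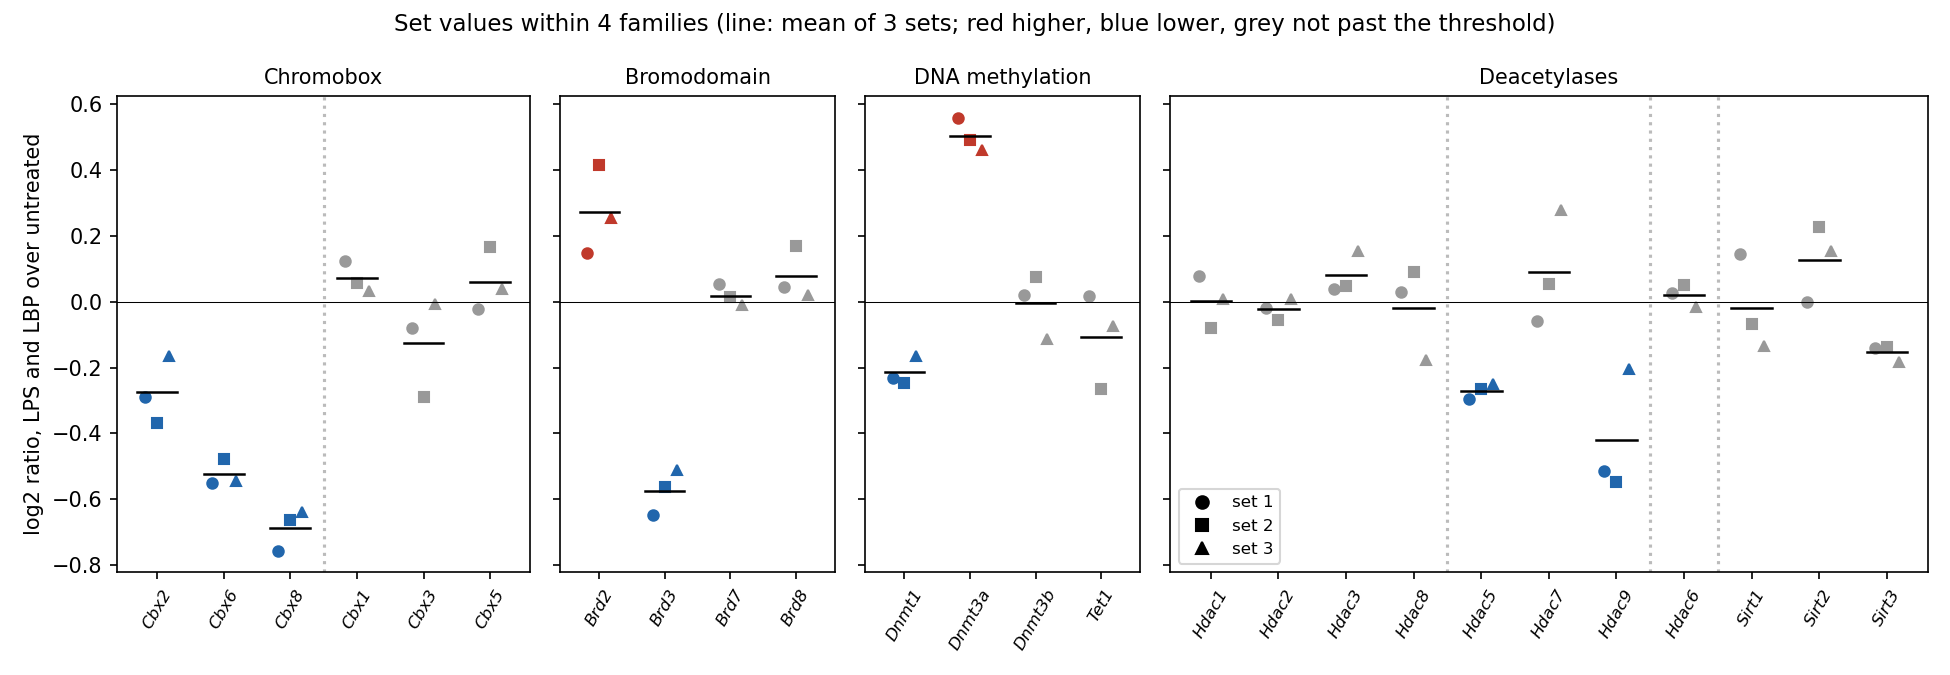
Log2 ratio of LPS and LBP over untreated cells in each of 3 sets (symbols) with the mean (line), for chromobox, bromodomain, DNA methylation and deacetylase genes. Dotted lines part Polycomb Cbx genes from HP1 genes and the classes of deacetylases. Cbx2, Cbx6 and Cbx8 lie between -0.76 and -0.17 in every set, Cbx1, Cbx3 and Cbx5 lie between -0.29 and 0.17, and Brd2 and Brd3, like Dnmt3a and Dnmt1, lie on opposite sides.

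DNA methyltransferase genes also split. Dnmt3a, whose product places new methyl groups on unmethylated DNA, was the highest of the 66 genes chosen by symbol, at 0.56, 0.49 and 0.46 in the sets. Its mean was 0.50 ± 0.05 (1.42-fold higher, adjusted p = 0.0011), and its arrays ran from 0.36 to 0.64, all above 0. Dnmt1, which copies methylation after replication, stood at -0.23, -0.25 and -0.16, with a mean of -0.21 ± 0.04 (1.16-fold lower, adjusted p = 0.0283). Both Dnmt1 probes averaged -0.21 or -0.22, and the gene was below 0 on 6 of 6 arrays, but its adjusted p was 0.0927, 0.061 and 0.154 without sets 1, 2 and 3. Of the single arrays, the forward array of set 1 and all 3 swapped arrays also ended the call when left out (adjusted p of 0.0521 to 0.0913). Dnmt3a minus Dnmt1 was 0.72 ± 0.08 and positive on 6 of 6 arrays (exact sign-flip p = 0.25, the smallest possible). Dnmt3b, the other gene of a de novo enzyme, did not pass, with a 95% interval from -0.14 to 0.13. Dnmt3a minus Dnmt3b was 0.51 ± 0.08. Both pairs were chosen after the values were seen. Tet1, an oxidase of methylcytosine, ran from -0.95 to 0.48 between arrays (mean -0.11 ± 0.14, adjusted p = 0.354). Dnmt3l, a cofactor without its own activity, had values on 4 arrays, from -0.16 to 0.27.

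Deacetylases remove acetyl groups from histones and other proteins. Of 11 tested genes, 2 fell, 0 rose and 9 did not pass by limma, with 0 higher at an unadjusted p under 0.05. The share past the threshold, 18.2%, was near the 14.8% of all features. Both genes that fell are of class IIa, which shuttles between nucleus and cytoplasm. Hdac5 stood at -0.29, -0.27 and -0.25 (mean -0.27 ± 0.02, 1.21-fold lower, adjusted p = 0.0103). Its 6 arrays lay between -0.32 and -0.25, the narrowest range among the 17 genes. Without set 3 its adjusted p was 0.11, at a mean of -0.28. Hdac9 stood at -0.51, -0.55 and -0.20 (mean -0.42 ± 0.19, 1.34-fold lower, adjusted p = 0.0152), but its arrays ran from -1.22 to 0.13, both ends in set 2. The Hdac9 call was lost without set 1 (adjusted p = 0.0855) and when any 1 array was left out (0.0735 to 0.298), and its mean was -0.26 without the forward array of set 2. Hdac7, of the same class, scattered from -0.06 to 0.28 over the sets (mean 0.09 ± 0.17, adjusted p = 0.481).

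None of the 4 tested class I genes passed. Hdac1 and Hdac2 encode the enzymes of the nuclear Sin3 and NuRD complexes, and Hdac3 that of the NCoR complex. Hdac1 averaged 0.00 ± 0.08 (95% interval -0.12 to 0.13), Hdac2 -0.02 ± 0.03 (-0.13 to 0.09) and Hdac3 0.08 ± 0.06 (-0.04 to 0.20). Hdac3 has 3 complete probes, which averaged 0.07, 0.10 and 0.07. Hdac8 averaged -0.02 ± 0.14. None of these 4 had an unadjusted p under 0.05. Sirtuins use NAD and link acetylation to metabolism, and Sirt1 (-0.02 ± 0.15), Sirt2 (0.13 ± 0.12) and the mitochondrial Sirt3 (-0.15 ± 0.03) did not pass, with adjusted p of 0.888, 0.222 and 0.072. The Sirt3 arrays ran from -0.35 (forward) to 0.07 (swapped), both in set 2, so the small SD of its sets hides this gap. Hdac6, a mainly cytoplasmic enzyme that acts on tubulin, averaged 0.02 ± 0.03.

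Histone demethylases included 2 lower and 0 higher genes among 6 tested by limma, with 0 higher at an unadjusted p under 0.05. The share past the threshold was 33.3%, beside 14.8% of all features. Kdm3b, whose product removes a silencing methyl mark of histone H3, stood at -0.32, -0.40 and -0.33 (mean -0.35 ± 0.05, 1.27-fold lower, adjusted p = 0.00458). Kdm2b, which binds unmethylated CpG islands and recruits a Polycomb complex, stood at -0.36, -0.24 and -0.32 (mean -0.31 ± 0.06, 1.24-fold lower, adjusted p = 0.00888). Both were below 0 on 6 of 6 arrays, and neither array range reached above -0.21. Without set 3 the adjusted p was 0.0638 for Kdm3b and 0.113 for Kdm2b, at means of -0.36 and -0.30. Kdm4b was below 0 on 6 of 6 arrays as well, at -0.18 ± 0.09, but did not pass (adjusted p = 0.0737). Kdm6a, which removes the Polycomb mark, averaged 0.09 ± 0.07 (adjusted p = 0.317). Kdm5d, on the Y chromosome, averaged 0.03 ± 0.06.

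Kdm5c, a demethylase of active promoters, was singled out after its values were seen. Its arrays gave 0.24, 0.33 and 0.32 in the forward orientation and -0.34, -0.24 and -0.32 in the swapped one, so the set means lay near 0 (adjusted p = 0.988). The sign followed the dye and not the treatment. The dye term was 0.30 (limma adjusted p = 0.0424), and Kdm5c was the single chromatin gene past the threshold for it, beside 0.499% of all features.

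Methyltransferases had 0 of 7 genes past the threshold by limma, beside 14.8% of all features, and 3 at an unadjusted p under 0.05. The largest mean in size was that of Kmt2b, an enzyme of active promoters, at -0.22, -0.07 and -0.17 (mean -0.15 ± 0.08, adjusted p = 0.101). Its close relative Kmt2a stood on the other side of 0 at 0.13 ± 0.03 (adjusted p = 0.109), and each kept its sign on 6 of 6 arrays. Setdb1, which places a silencing mark, averaged -0.15 ± 0.06 (adjusted p = 0.102). Ezh2, the catalytic subunit of Polycomb complex PRC2, lay near 0, at 0.02 ± 0.05 (95% interval -0.09 to 0.14), and its relative Ezh1 averaged -0.04 ± 0.06. Setd3 (-0.11 ± 0.03) and Setd6 (-0.11 ± 0.14) did not pass either.

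Acetyltransferase genes were few. Kat2b, a coactivator enzyme, stood at -0.09, -0.37 and -0.29 (mean -0.25 ± 0.14) and missed the threshold at adjusted p = 0.0501. Its adjusted p was 0.0335 at a mean of -0.33 without set 1, but 0.0923 without set 2 and 0.291 without set 3. With any 1 array left out it was 0.0711 to 0.303. A second Kat2b probe had values on 2 arrays of set 1, at -2.95 (forward) and 2.74 (swapped), so its sign followed the dye. Kat6b averaged -0.18 ± 0.07 (adjusted p = 0.065). Kat2a, the relative of Kat2b, was measured on 5 arrays, all slightly below 0, from -0.17 to -0.03.

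SWI/SNF and ARID genes showed 3 lower and 0 higher among 13 tested by limma, with 1 higher at an unadjusted p under 0.05. The share past the threshold was 23.1%, beside 14.8% of all features. Among SWI/SNF subunit genes, Smarcb1 (0.05 ± 0.07), Smarcc1 (0.07 ± 0.07) and Smarce1 (0.13 ± 0.07) did not pass. Smarca2, the gene of the ATPase BRM, stood at -0.16, -0.17 and -0.25 (mean -0.19 ± 0.05, 1.15-fold lower, adjusted p = 0.0405). Smarcal1, which rewinds DNA at stalled replication forks, stood at -0.24, -0.22 and -0.16 (mean -0.21 ± 0.04, 1.15-fold lower, adjusted p = 0.0306). Both were below 0 on 6 of 6 arrays, with Smarca2 between -0.27 and -0.13 and Smarcal1 between -0.26 and -0.15. The adjusted p of Smarcal1 was 0.1, 0.0577 and 0.168 without sets 1, 2 and 3, and 0.0533 and 0.0557 without the swapped arrays of sets 1 and 3. That of Smarca2 was 0.0884 and 0.3 without sets 1 and 3, and 0.0645 to 0.0951 without the forward array of set 1 or either array of set 3.

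Arid3b, a gene of a DNA-binding protein outside SWI/SNF, stood at -0.16, -0.19 and -0.40 (mean -0.25 ± 0.13, 1.19-fold lower, adjusted p = 0.045). Its arrays ran from -0.54 to 0.16, and the swapped arrays averaged -0.41, with -0.08 for the forward ones. The call was lost without set 1 (adjusted p = 0.0759), without set 3 (0.281) and when 1 array other than the forward array of set 2 was left out (0.173 to 0.399). Arid5b (-0.23 ± 0.24) and Arid2 (-0.22 ± 0.25), a SWI/SNF subunit, had similar means but wider spread between sets and did not pass (adjusted p of 0.166 and 0.196). Smarcd2 has 3 complete probes, at -0.13, -0.15 and near 0, each with arrays on both sides of 0. Smarca5, an ATPase of the ISWI class, had values on 3 arrays, -1.21 and -1.03 on forward arrays and 0.26 on a swapped one. Smarcd1, Smarcd3, Smarcad1 and Arid3a had means between -0.05 and 0.07 and did not pass.

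Among CHD remodellers, 1 of 3 rose, beside 7.35% of all features. Chd1, which binds a mark of active promoters and accompanies RNA polymerase, was even across the sets, at 0.30, 0.30 and 0.33 (mean 0.31 ± 0.02, 1.24-fold higher, adjusted p = 0.00597, 6 of 6 arrays). Without set 3 its adjusted p was 0.0929. Chd4, the ATPase of the NuRD complex, averaged 0.14 ± 0.08 (adjusted p = 0.123), but the forward arrays averaged 0.40 and the swapped ones -0.12. Chd1l, a remodeller of DNA repair, averaged 0.06 ± 0.09. PHD finger genes included 1 higher and 0 lower gene among 7 tested by limma, with 1 lower at an unadjusted p under 0.05. The share past the threshold, 14.3%, was near the 14.8% of all features. Phf23 stood at 0.29, 0.36 and 0.46 (mean 0.37 ± 0.08, 1.29-fold higher, adjusted p = 0.00555) and was above 0 on 6 of 6 arrays. That call was lost without set 3 (adjusted p = 0.0794). Phf2, a demethylase relative, scattered from -0.14 to 0.17 over the sets. The probes of Phf14 differed, at -0.28 and -0.03, and their mean of -0.16 ± 0.04 did not pass (adjusted p = 0.0755). The lower probe passed on its own (adjusted p = 0.0129), and the gene also passed in the fit with a dye term. That probe averaged -0.49 on forward and -0.08 on swapped arrays. Phf14 as a gene averaged -0.33 on forward and 0.02 on swapped arrays, with 4 of 6 arrays below 0. Phf1, Phf6, Phf10 and Phf12 had means between -0.08 and 0.06 and did not pass.

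**Figure D3:**
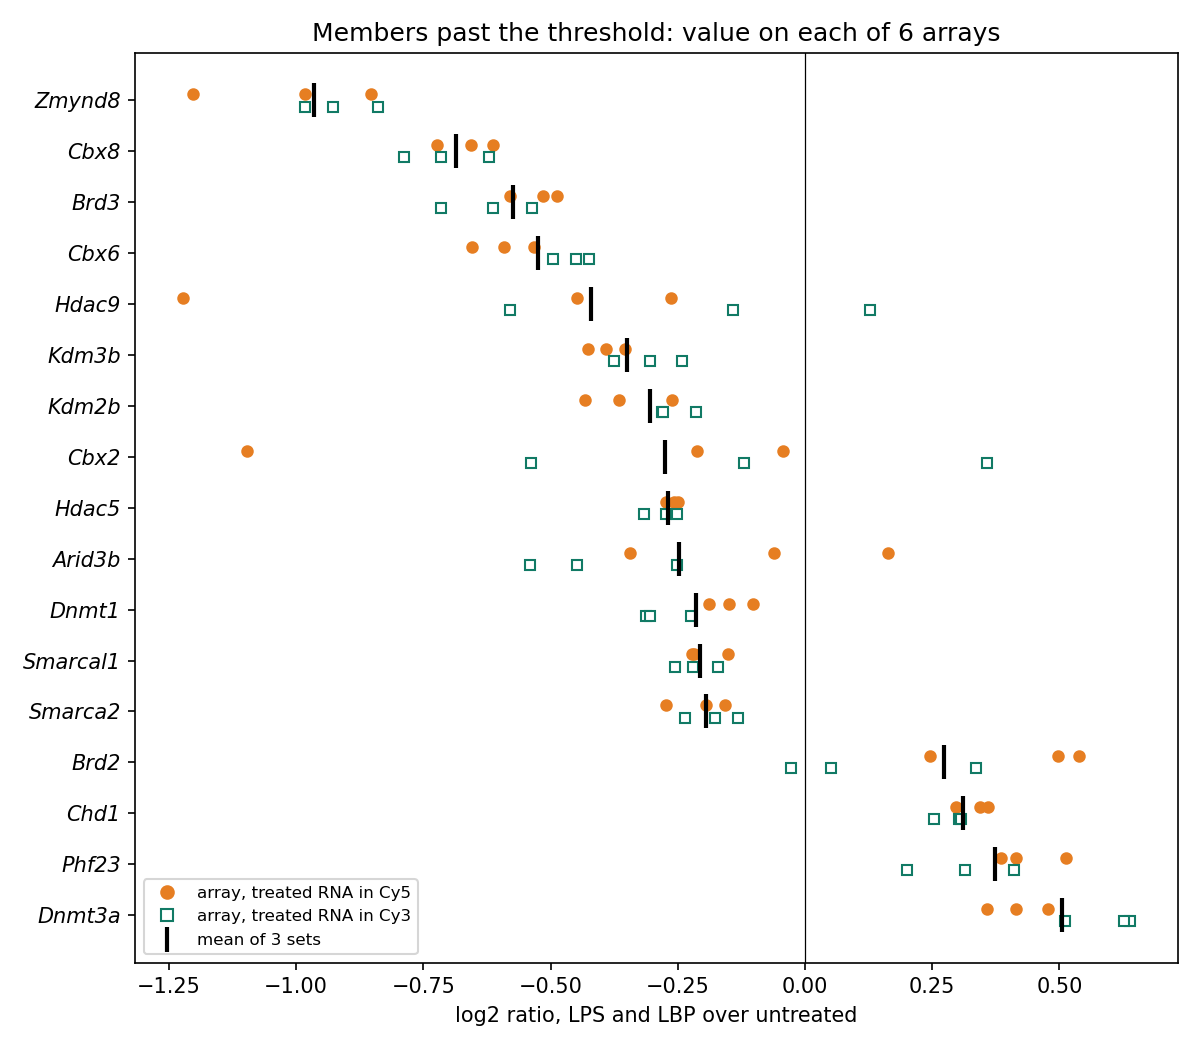
Log2 ratio of LPS and LBP over untreated cells on each of the 6 arrays for the 17 chromatin genes past the threshold, with filled circles for forward arrays, open squares for swapped arrays and a bar for the mean of 3 sets. Zmynd8, Cbx8, Brd3, Cbx6 and Dnmt3a are far from 0 on every array, while Hdac9, Cbx2, Arid3b and Brd2 have an array on the other side of 0.

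Chromatin genes outside the symbol rule were taken from 6 textbook lists. Of 118 listed genes, 66 were tested, and 4 rose, 5 fell and 57 did not pass, or 13.6% past the threshold beside the background of 14.8%. The difference from the 25.8% above was not tested. Polycomb genes of these lists had 3 higher and 0 lower of 15 tested by limma (1 lower at an unadjusted p under 0.05). The share higher was 20%, beside 7.35% of all features. Mtf2, which brings PRC2 to DNA, stood at 0.60, 0.74 and 0.43 (mean 0.59 ± 0.16, adjusted p = 0.00263). Rnf2, the ubiquitin ligase of the complex that Cbx proteins join, averaged 0.38 ± 0.11 (1.31-fold higher, adjusted p = 0.00709), both on 6 of 6 arrays. Rybp, a subunit of Polycomb complexes without Cbx proteins, averaged 0.28 ± 0.15 (adjusted p = 0.0374, 4 of 6 arrays). Acetyltransferase cofactors had 4 lower and 0 higher of 12 tested by limma (1 higher at an unadjusted p under 0.05). These were Ing4 (-0.37 ± 0.13), Ncoa3 (-0.34 ± 0.09), Ing1 (-0.29 ± 0.03) and Ing2 (-0.21 ± 0.10), with adjusted p of at most 0.0483. Ing1 and Ing2 are better known from the Sin3 deacetylase complex. The others were Suv39h2, a silencing methyltransferase gene (-0.24 ± 0.05), and Sap30, a Sin3 subunit gene (0.22 ± 0.05). Without set 3, 1 of the 66 passed.

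**Figure D4:**
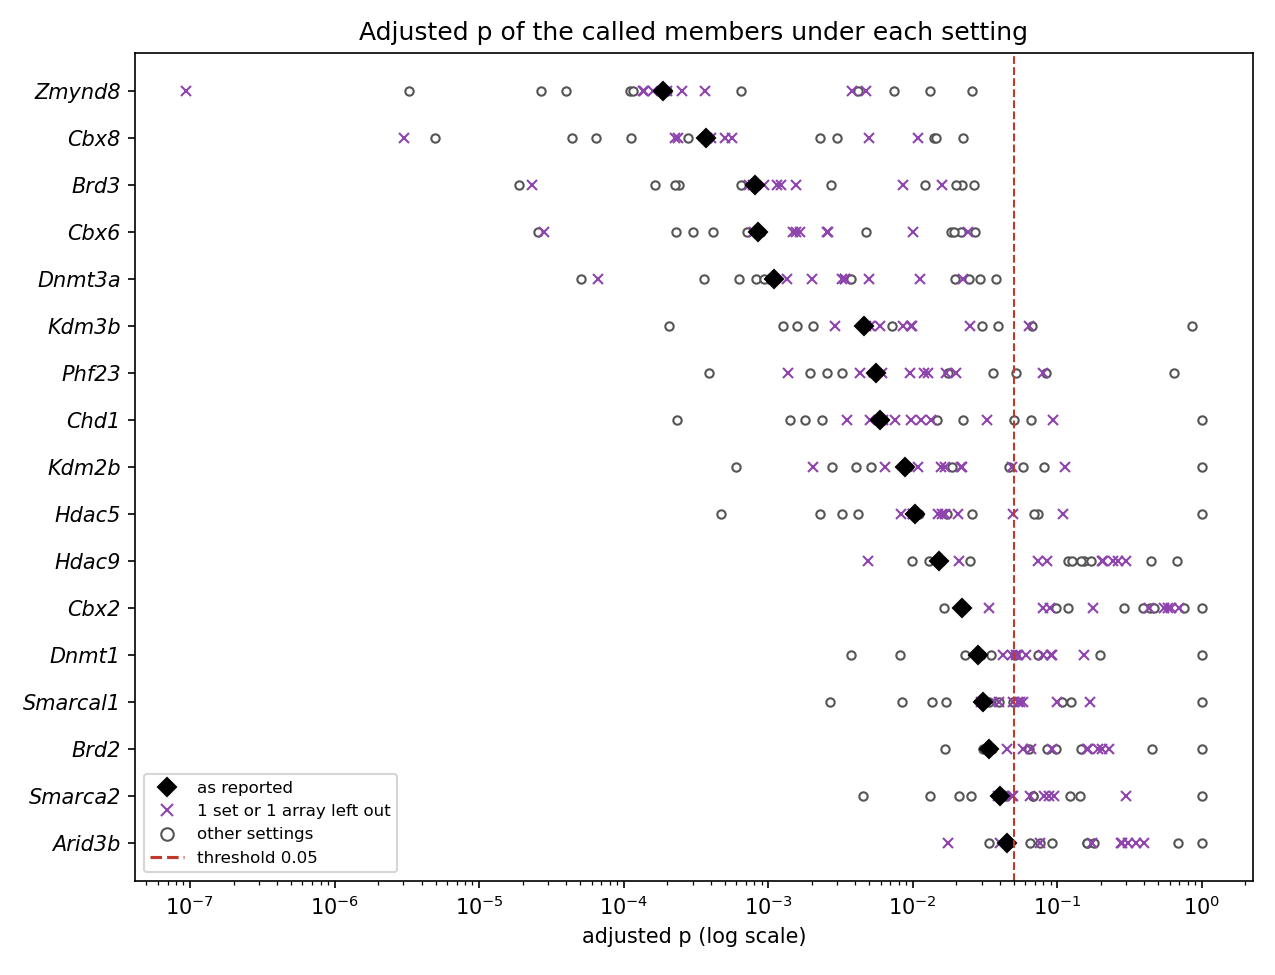
Adjusted p (log scale) of each of the 17 chromatin genes as reported (diamonds), with 1 set or 1 array left out (crosses) and under the other alternative settings (circles). All symbols of Zmynd8, Cbx8, Brd3, Cbx6 and Dnmt3a lie left of the dashed threshold of 0.05, and each of the other 12 genes has symbols on both sides.

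As a check of direction, all 8 of 10 known LPS-induced genes that were measured on every array were higher on 6 of 6 arrays. Markers of lymphocytes, fibroblasts, endothelium and epithelium gave 0 of 23 tested genes past the threshold by limma, beside 14.8% of all features. At an unadjusted p under 0.05 there were 5, and means ran from -0.20 to 0.22. A ratio near 0 does not show whether such cells were present. Of 8 tested macrophage markers, Adgre1 and Spi1 rose and Csf1r and Fcgr1 fell. The part of either marker group in the results was not tested. Array medians of the deposited ratios lay between 0.00 and 0.02, and between 9.12% and 12.4% of the values on an array were exact zeros, treated as missing.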

How the data were processed

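Transcript ratios of LPS and LBP treated over untreated RAW 264.7 cells were read from 6 two-channel arrays. The authors deposited 1 log2 ratio per probe and array, and 87.3% to 92.8% of non-zero values on an array look like log10 ratios that were converted. How background and dyes were corrected is not stated in these sources. A direction of Cy5 over Cy3 is likely, given the dyes per the labels, but not stated. Precision is limited by the number of arrays, as spot intensities were not used. Exact zeros became missing values. Probes were named through the platform annotation: 13738 had 1 gene symbol, 52 several and 2491 none, and all 69 chromatin genes matched the RefSeq table by gene ID.

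Swapped arrays were multiplied by -1. Complete probes of a gene were averaged (11231 features), and so were the 2 arrays of a set. The 3 set means of a feature were compared with 0 by a two-sided moderated test (limma 3.58.1, functions lmFit and eBayes, R 4.3.3), adjusted by Benjamini and Hochberg over all features, which was tested on simulated data. The pairing of arrays by set number comes from the labels. Before swapped arrays were turned, deviations of same-numbered arrays from their orientation mean correlated across features at 0.40, 0.43 and 0.14. On turned arrays the consensus correlation within sets was -0.44. Averaging the 2 arrays of a set thus partly cancels their deviations, and SDs of the 3 sets can be smaller than the spread between arrays. Intervals are limma's 95% intervals and are not adjusted. The dye term came from a limma fit to 6 arrays.

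Named genes were those past the threshold, the largest change in a family without one, and a fixed list of 21, of which 15 were measured on all arrays. Other genes named, such as relatives of these and genes with few arrays or uneven probes, and all differences between relatives, were chosen after values were seen. The members and lists were chosen with earlier results of these data known, among them the fall of Zmynd8. Alternatives covered sets, arrays, dyes, zeros, missing values, centring, scaling, probes, eBayes and a minimum fold.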

Additional observations from a re-analysis of the deposited data

Results flagged for a closer look

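In 4 of the 66 tested chromatin genes, 1 of the 6 arrays stood far from the other 5 by Dixon's gap test. Chance alone gives such a gap in about 1 in 20 groups. Arid2 had -0.917 on the forward array of set 2, against -0.122 to -0.0128 on the others. Arid3a had -0.385 on the same array, against -0.00477 to 0.0955 on the others. Zmynd19 had -0.453 on the forward array of set 1, with the others between -0.118 and 0.0664. Hdac5 had -0.316 on the swapped array of set 1, close to the others at -0.274 to -0.249 and it still passed without that array.

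In 6 chromatin genes every array of one dye orientation lay on one side of 0 and every array of the other orientation on the opposite side, as in 1475 of all 11231 features. Kdm5c had the largest dye term, 0.297, past the threshold by limma (adjusted p = 0.0424). The terms of Chd4 (0.261, adjusted p = 0.054), Sirt1 (-0.187, 0.119), Smarcd1 (0.131, 0.175), Hdac6 (-0.129, 0.0963) and Kdm5d (0.11, 0.159) did not pass. A positive term means a lean to Cy5 whichever RNA it held.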

How the results depend on the processing

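Counts moved with the data left in. All features past the threshold numbered 1663, against 563 to 1685 with 1 set left out (1056 without set 1), 885 to 1276 with 1 array left out, 639 on forward arrays alone, 655 on swapped arrays alone, 962 with zeros kept as ratios of 0 and 394 in a test against a 1.2-fold change. For the chromatin genes the 17 became 6 to 17 without 1 set, 10 to 15 without 1 array and 8, 5, 11 and 5 under the other 4 settings. Higher genes, 4 as reported, numbered 1 to 4, 3, and then 3, 1, 2 and 1. Lower genes, 13 as reported, numbered 5 to 13, 7 to 12, and then 5, 4, 9 and 4. The 9 other chromatin genes became 1 to 11 without 1 set, 6 to 9 without 1 array, then 2, 3, 1 and 1, and 15 with a dye term. That dye-term fit passed 20 chromatin genes, 14 of them among the 17, and 1865 of all features. With no replicate block (6 arrays as independent), 13 chromatin genes passed, all among the 17, and 1376 of all features. The random replicate block (consensus correlation -0.44) passed 24 chromatin genes, 16 of them among the 17, 17 other chromatin genes and 2282 of all features. Median centring, equal array spread, single probes, robust eBayes and allowed missing values gave 13 to 20 chromatin genes and 1328 to 1748 of all features. No direction of the 17 reversed under the 21 settings. The cause of these shifts was not tested, beyond fewer arrays in some fits. Signal over background is unknown.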
